A study of Homo sapiens with 15 samples.

Results

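The HLA class I heavy chain genes described here were HLA-B, HLA-C, HLA-E and HLA-F, taken by gene symbol from the deposited expression tables of a lung fibroblast line and a lung cancer line. They were 4 of the 17138 genes listed in at least one of the tables, and all 4 stood in both (16382 genes for MRC5, 16076 for H196, 15320 in both). The study asked how small cell lung cancer (SCLC) cells and fibroblasts change each other in co-culture. The fibroblasts were of the human lung line MRC5. They formed the groups MRC5_Mo in mono-culture, MRC5_CoH69 opposite H69 cells and MRC5_CoH196 opposite H196 cells. The cancer cells of the line H196 formed the groups H196_Mo in mono-culture and H196_Co opposite MRC5. H69 is a neuroendocrine (NE) SCLC line and H196 a non-NE SCLC line, and no H69 libraries were analysed here. All groups were cultured for 7 days and none received a drug or a genetic change. In co-culture, the partner cells were seeded on the membrane of a transwell (pores of 0.4 µm) above the sequenced cells, so that soluble factors passed and cells did not touch. Each of the 5 groups had 3 libraries (15 in all), described as parallel replicates. P-values therefore measured the spread between these libraries, which may be technical. Each partner was a single line. MRC5 was kept in MEM and the SCLC lines in RPMI, so any difference between MRC5 and H196 cells was also one of medium. The study did not state the medium of the co-cultures, so a difference between co-culture and mono-culture may also be one of medium. Library totals ran from 16073597 to 17358349 counts for H196 and from 18476890 to 19170560 for MRC5.

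Class I molecules display peptides from inside the cell to CD8 T cells. A heavy chain pairs with the light chain β2-microglobulin (B2M) in the endoplasmic reticulum, where the TAP transporter and chaperones load it with peptides cut by the proteasome. HLA-B and HLA-C are classical heavy chains that present peptides to T cells and are read by inhibitory receptors of natural killer (NK) cells. HLA-E mainly shows leader peptides of other class I chains to the NKG2A receptor of NK cells, and HLA-F is a nonclassical chain that can also reach the surface without peptide and bind NK receptors. Loss of class I is a known trait of many SCLC tumours, most often of the NE kind, and interferon and NF-κB signals raise class I transcription in many cell types.

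The promoters of the classical genes carry a shared set of control elements, and they are shown because 3 of the members moved together in the fibroblasts. The stretches below cover 200 to 41 bases before the annotated start in RefSeq (GRCh38.p14, all on chromosome 6, 5′ to 3′ on the strand of the gene), which listed 3 of the 4 members. Capitals mark 4 kinds of sequence: an enhancer A sequence (GGGGA followed by TTCNCC, the NF-κB element), an interferon-response-like sequence (TTTCNNTT), the X2 box (TGACGC, the element of CREB and ATF factors) and the Y box (CCAAT or its complement, the element of NF-Y). In HLA-B they stand in that order from 5′ to 3′. In HLA-C a Y box (ATTGG) comes first, ahead of enhancer A. In HLA-F the first exact match is the interferon-response-like sequence, and the only exact matches after it are Y boxes.
HLA-B, chr6:31357220-31357379, minus strand: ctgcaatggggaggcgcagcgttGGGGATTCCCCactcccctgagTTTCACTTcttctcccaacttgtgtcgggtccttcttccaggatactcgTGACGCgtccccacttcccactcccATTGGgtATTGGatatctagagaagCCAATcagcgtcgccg
HLA-C, chr6:31272133-31272292, minus strand: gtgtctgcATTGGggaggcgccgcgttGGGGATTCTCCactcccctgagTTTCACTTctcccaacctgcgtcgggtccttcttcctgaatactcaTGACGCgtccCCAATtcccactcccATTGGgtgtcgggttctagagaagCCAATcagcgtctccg
HLA-F, chr6:29723234-29723393, plus strand: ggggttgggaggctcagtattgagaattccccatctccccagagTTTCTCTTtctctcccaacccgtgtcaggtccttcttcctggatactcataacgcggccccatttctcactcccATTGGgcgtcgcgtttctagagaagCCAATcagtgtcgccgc
HLA-B and HLA-C held all 4 motifs, with the interferon-response-like sequence starting 155 and 151 bases before the start and the X2 box 106 and 105 bases before it. HLA-F held the interferon-response-like sequence 156 bases before its start and 2 CCAAT sequences, and neither the enhancer A nor the X2 letters stood in this window. Only exact letters were searched, so close variants stay in lower case and HLA-F may still carry such elements. Both strands were searched and no motif overlapped another. Among 35116 promoters, the same window held the enhancer A letters in 0.0484% and the X2 letters in 4.92%. It held the interferon-response-like letters in 13.4%, a CCAAT in 24.7% and all 4 in 0.0057%. These promoters include the members, and the 2 that held all 4 were those of HLA-B and HLA-C. The letters are those of class I control elements, and the N of enhancer A stands where HLA-B and HLA-C differ. The shares are therefore no test of the match in these 2 promoters. HLA-E is named here without a sequence. A match of letters describes the window and does not show that a factor binds there.

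The order of the members was the same in all 15 libraries: HLA-B was highest, then HLA-C, HLA-E and HLA-F, on the scale of FPKM (fragments per kilobase of transcript, scaled to the depth of the library). HLA-B stood at 532.09, 494.98 and 455.18 FPKM in MRC5_Mo, at 557.50, 557.29 and 524.13 FPKM in MRC5_CoH69 and at 795.00, 769.82 and 769.08 FPKM in MRC5_CoH196. In the H196 cells it stood at 265.30, 288.27 and 305.30 FPKM alone and at 334.66, 311.69 and 330.29 FPKM with MRC5. The fibroblasts with H196 were thus highest, every fibroblast library was above every H196 library, and the neighbours that overlapped were MRC5_CoH69 and MRC5_Mo.

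HLA-C followed the same order of groups. Its levels were 431.46, 417.11 and 394.94 FPKM in MRC5_Mo, 458.04, 454.05 and 431.98 FPKM in MRC5_CoH69 and 632.09, 609.87 and 619.03 FPKM in MRC5_CoH196. In H196_Mo they were 251.54, 282.83 and 282.35 FPKM and in H196_Co 308.48, 294.95 and 316.79 FPKM. No neighbouring groups overlapped, though the lowest MRC5_CoH69 library lay just above the highest MRC5_Mo library.

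HLA-E, the ligand of NKG2A, was less abundant and also highest in the fibroblasts with H196. It had 128.02, 125.56 and 120.05 FPKM in MRC5_Mo, 137.83, 140.11 and 137.12 FPKM in MRC5_CoH69 and 204.01, 195.72 and 192.27 FPKM in MRC5_CoH196. It had 90.49, 89.89 and 97.49 FPKM in H196_Mo and 104.17, 105.01 and 97.30 FPKM in H196_Co. Only the H196 groups overlapped among neighbours, by the third H196_Co library.

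HLA-F divided the lines the other way. It was listed at 18.96, 22.24 and 21.94 FPKM in H196_Mo and at 25.50, 25.53 and 21.66 FPKM in H196_Co, groups that overlapped. In the fibroblasts it was listed at 0.18, 0.07 and 0.22 FPKM in MRC5_Mo, at 0, 0.24 and 0.12 FPKM in MRC5_CoH69 and at 0.31, 0.37 and 0.32 FPKM in MRC5_CoH196. The mean of H196_Mo was 63.1 times that of MRC5_CoH196, the next group in order.

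**Figure D1:**
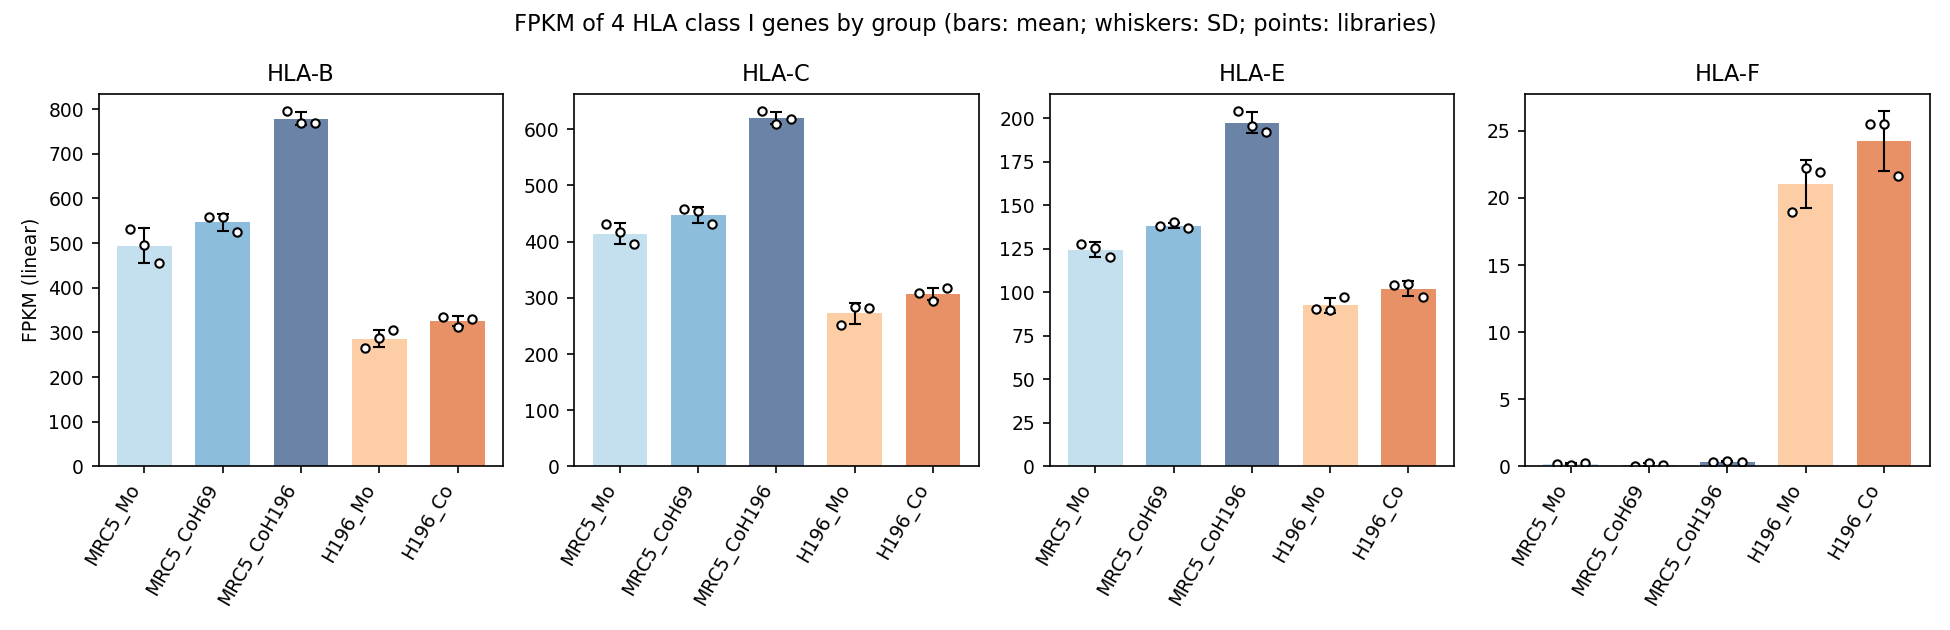
FPKM (linear axes, one panel per gene) of HLA-B, HLA-C, HLA-E and HLA-F in the 5 groups, with bars for the mean of 3 libraries, whiskers for the SD and points for the libraries. HLA-B, HLA-C and HLA-E were highest in MRC5_CoH196, with means of 778, 620 and 197 FPKM, whereas HLA-F was high in H196 cells alone or in co-culture, with means of 21.1 and 24.2 FPKM.

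In MRC5 fibroblasts grown with H196 cells, HLA-B, HLA-C and HLA-E all rose, by nearly the same factor. HLA-B went from 494 ± 38.5 FPKM (SD, n = 3) to 778 ± 14.8 FPKM, HLA-C from 415 ± 18.4 to 620 ± 11.2 FPKM and HLA-E from 125 ± 4.08 to 197 ± 6.03 FPKM. On counts scaled by TMM factors, HLA-B was 1.77-fold higher (log2 fold change 0.83 ± 0.0493 SE, edgeR adjusted p = 1.16e-13). HLA-C was 1.69-fold higher (0.75 ± 0.0439 SE, edgeR adjusted p = 7.52e-14) and HLA-E 1.78-fold higher (0.84 ± 0.0423 SE, edgeR adjusted p = 4.56e-15). In CPM (counts scaled to a common library size), the lowest MRC5_CoH196 library stood above the highest MRC5_Mo library for each of these genes. Such a gap was seen for 37.7% of all genes upward. The 3 members tested passed an adjusted p of 0.05, where 37.2% of the 12819 genes tested passed upward, and all 3 exceeded the study's limit of 0.58 on the log2 scale for a DEG, as did 17.2% of the genes. Broad as this change of the transcriptome was, the rises were not among its largest, since HLA-E ranked 1303, HLA-B 1339 and HLA-C 1571 by log2 fold change. HLA-F did not reach the limit on low counts in MRC5 and was not part of this test. In bulk RNA, a change in the share of cells that express a gene and a change in RNA per cell cannot be told apart.

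The size of the rise depended on scaling, but the calls did not. TMM factors of 0.916 to 0.941 in MRC5_CoH196, against 1.03 to 1.05 in the other fibroblasts, set the median gene near 0. With library totals alone, the median of all genes moved to -0.18, and HLA-B, HLA-C and HLA-E were at 0.65, 0.58 and 0.66, higher than that median by a like amount. HLA-C then lay just under the DEG limit. No alternative and no left-out library ended any of the 3 calls.

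With H69 cells as the partner, the same fibroblast genes moved little. HLA-E was 1.12-fold higher than in MRC5_Mo (log2 fold change 0.16 ± 0.0425 SE, edgeR adjusted p = 0.0203), with no overlap of the libraries in CPM or FPKM. In CPM 13.6% of all genes had no overlap upward. HLA-B differed by 0.15 ± 0.0492 (SE, edgeR adjusted p = 0.0639) and HLA-C by 0.12 ± 0.0439 (SE, edgeR adjusted p = 0.113), and both overlapped in CPM. So 1 of the 3 members tested passed, where 3.78% of all genes passed upward and 2.93% downward, and none was a DEG. The HLA-E call was lost without MRC5_CoH69 replicate 1 (edgeR adjusted p = 0.0737) or replicate 2 (0.0966) and without MRC5_Mo replicate 2 (0.0902) or replicate 3 (0.155). HLA-B gained a call without MRC5_CoH69 replicate 3 (0.0453) or MRC5_Mo replicate 1 (0.00898). Over all alternatives the adjusted p ran from 0.00626 to 0.155 for HLA-E, from 0.00898 to 0.414 for HLA-B and from 0.0562 to 0.469 for HLA-C.

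Set against each other, the fibroblast co-cultures differed clearly in these genes. MRC5_CoH196 exceeded MRC5_CoH69 by 1.6-fold for HLA-B (log2 0.67 ± 0.0491 SE, edgeR adjusted p = 7.01e-12), by 1.55-fold for HLA-C (0.63 ± 0.0438, 2.56e-12) and by 1.6-fold for HLA-E (0.67 ± 0.0421, 3.65e-13). Every MRC5_CoH196 library was above every MRC5_CoH69 library for each of them, which held in CPM for 35.9% of all genes. All 3 tested members passed and were DEGs, against 35.7% and 15.2% of genes upward. On library totals the differences were 0.52, 0.48 and 0.52, under the DEG limit, with the median of all genes at -0.17. This comparison and that with MRC5_Mo share the MRC5_CoH196 libraries, as both comparisons with mono-culture share the MRC5_Mo libraries.

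In H196 cells grown with MRC5 fibroblasts, HLA-B, HLA-C and HLA-E were slightly higher than in H196 cells alone. HLA-B went from 286 ± 20.1 to 326 ± 12.2 FPKM (SD, n = 3), 1.2-fold on the scaled counts (log2 0.26, 95% interval 0.106 to 0.42, edgeR adjusted p = 0.0184). HLA-C went from 272 ± 17.9 to 307 ± 11.0 FPKM, 1.19-fold (log2 0.25, interval 0.0945 to 0.406, edgeR adjusted p = 0.0231). HLA-E went from 92.6 ± 4.23 to 102 ± 4.23 FPKM, 1.16-fold (log2 0.22, interval 0.073 to 0.36, edgeR adjusted p = 0.0318). HLA-F, detected well in this line, went from 21.1 ± 1.81 to 24.2 ± 2.23 FPKM and did not pass (log2 0.29, interval 0.0685 to 0.502, edgeR adjusted p = 0.0584). So 3 of the 4 members passed, where 12% of the 12806 genes tested passed upward and 7.78% downward, and none was a DEG. In CPM the groups did not overlap for any of the 4, which held for 20.2% of all genes upward. For HLA-F the gap was narrow, with 19.92 CPM in the lowest H196_Co library and 19.65 CPM in the highest H196_Mo library.

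These calls in H196 cells were fragile. The first H196_Mo library was the lowest of its group in CPM for all 4 members (HLA-B 316.0 CPM against up to 377.5 CPM, HLA-F 15.02 against up to 19.65 CPM). Without it the differences were 0.19 for HLA-B, 0.18 for HLA-C and 0.18 for HLA-E (edgeR adjusted p = 0.088, 0.107 and 0.103). The calls of HLA-B, HLA-C and HLA-E were also lost without H196_Co replicate 1 (0.0528, 0.0505 and 0.0731) or replicate 3 (0.0821, 0.113 and 0.0544), and that of HLA-E without H196_Co replicate 2 (0.0579) or H196_Mo replicate 2 (0.106). HLA-F gained a call without H196_Mo replicate 3 (log2 0.35, adjusted p = 0.05). On library totals HLA-B, HLA-C and HLA-E stood at 0.19, 0.18 and 0.14 and did not pass. Over all alternatives the adjusted p ran from 0.00191 to 0.088 for HLA-B, from 0.00154 to 0.113 for HLA-C, from 0.00184 to 0.128 for HLA-E and from 0.0369 to 0.252 for HLA-F, and every log2 fold change was above 0.

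Fibroblasts and H196 cells shared a direction and differed in size. A model over all 15 libraries tested whether the change of MRC5_CoH196 from MRC5_Mo exceeded that of H196_Co from H196_Mo. The excess was 0.54 ± 0.0897 for HLA-B, 0.48 ± 0.0835 for HLA-C and 0.59 ± 0.0743 for HLA-E on the log2 scale (SE, edgeR adjusted p = 1.36e-05, 2.61e-05 and 1.86e-07). These 3 members passed, where 24.1% of the 13585 genes tested passed upward. HLA-F entered this model only through its reads in H196 cells and had 1 to 7 reads per library in these fibroblast groups, so it is not counted here. The fibroblasts with H196 and the H196 cells with MRC5 were each other's partner, so this contrast compares the 2 sides of the same co-culture system, in lines of different origin.

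**Figure D2:**
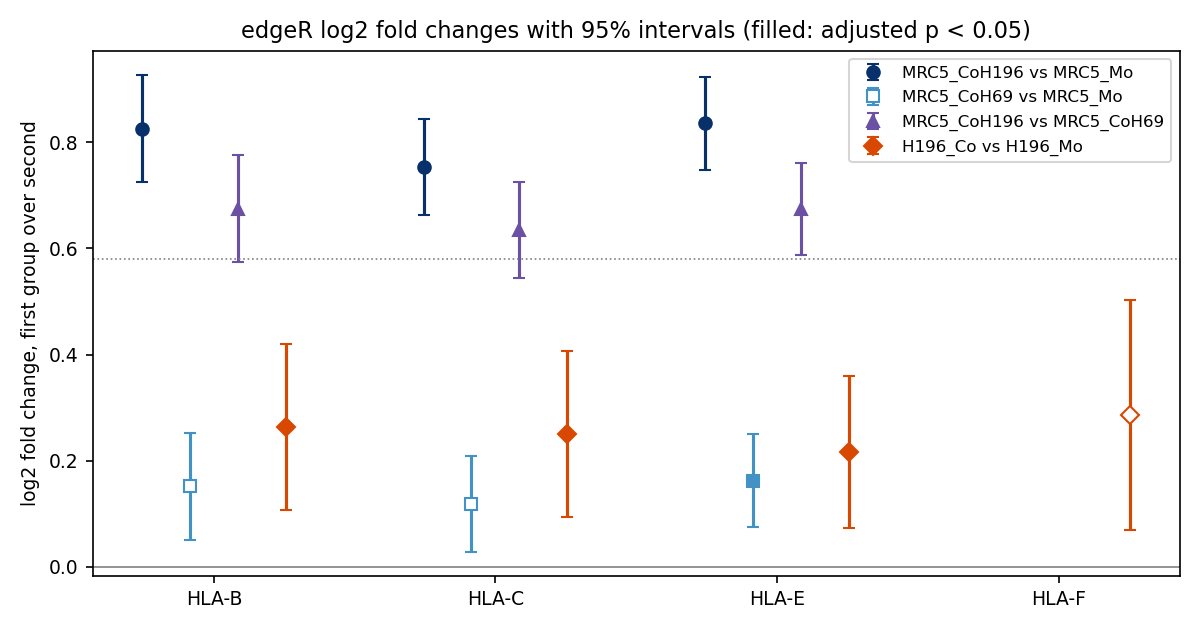
Log2 fold changes from edgeR (points) with 95% intervals (whiskers) of each gene in 4 comparisons, filled where the adjusted p was under 0.05, with a dotted line at the DEG limit of 0.58. HLA-B, HLA-C and HLA-E in MRC5_CoH196 against MRC5_Mo lie at 0.83, 0.75 and 0.84, above the line, while the changes with H69 (0.15, 0.12 and 0.16) and in H196 cells (0.26, 0.25 and 0.22) lie under it. HLA-F has a point only in H196 cells.

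Grown alone, H196 cells had less HLA-B, HLA-C and HLA-E than MRC5 cells and more HLA-F. H196_Mo had 0.427 times the HLA-B of MRC5_Mo (log2 -1.23 ± 0.0643 SE, edgeR adjusted p = 1.6e-16), 0.484 times the HLA-C (-1.05 ± 0.0597, 1.15e-15) and 0.551 times the HLA-E (-0.86 ± 0.0531, 7.46e-15). These 3 members passed downward, where 42.6% of genes passed downward and 44% upward. HLA-F entered this model only through H196 cells and is given below by its reads. For HLA-E the gap between the lines was about as large as its rise in MRC5_CoH196 (0.84). The scaling between such unlike lines mattered: with library totals alone the values were -0.80, -0.62 and -0.43, with the median of all genes at 0.45, and that of HLA-E was then smaller in size than its rise in MRC5_CoH196 on the same scaling (0.66). Line and medium cannot be told apart here.

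In MRC5 cells HLA-F rested on single reads. MRC5_Mo libraries held 3, 1 and 2 reads, MRC5_CoH69 libraries 0, 4 and 2, and MRC5_CoH196 libraries 6, 7 and 6, whereas H196_Mo held 252.21, 343 and 345.08 estimated reads and H196_Co 388.14, 375 and 327.8. The library with no read allows up to 0.157 CPM (3 counts of its total). Summed over libraries, 19 reads in MRC5_CoH196 against 6 in MRC5_Mo gave a ratio of 3.13 after division by library totals (exact 95% conditional binomial interval 1.2 to 9.58), and 6 against 6 in MRC5_CoH69 a ratio of 0.995 (0.266 to 3.72). Every MRC5_CoH196 library exceeded every other fibroblast library, at 0.341 to 0.403 CPM. With no filter on low counts edgeR gave 1.75 ± 0.696 (SE, adjusted p = 0.027) for MRC5_CoH196 against MRC5_Mo. The same fit gave 1.74 ± 0.696 (adjusted p = 0.0285) against MRC5_CoH69. The binomial intervals of the summed reads cover counting error only, while the edgeR errors also include a spread estimated between libraries. H196_Mo exceeded MRC5_Mo by a ratio of 173 (79.3 to 473) and H196_Co exceeded MRC5_CoH196 by 64.0 (40.8 to 107). Reads from the partner line in the sequenced wells were not tested as a source of these few reads.

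The shares of the members in their summed FPKM differed between the lines and moved by at most 1.27 percentage points between groups of a line. Of the FPKM summed over the members, HLA-B held 47.8% ± 0.918, HLA-C 40.1% ± 0.592, HLA-E 12.1% ± 0.324 and HLA-F 0.0153% ± 0.00803 in MRC5_Mo (SD, n = 3). In H196_Mo the shares were 42.6% ± 0.527, 40.5% ± 0.787, 13.8% ± 0.646 and 3.13% ± 0.116. The gap between the lines was not tested. In MRC5_CoH196 HLA-C held 38.9%, which was 1.27 percentage points below MRC5_Mo with no overlap, while HLA-B at 48.7% and HLA-E at 12.4% overlapped with MRC5_Mo. An exact two-sided permutation test of 3 against 3 libraries cannot go below p = 0.1. That value was reached by HLA-C in MRC5_CoH196 against both other fibroblast groups and by HLA-B in MRC5_CoH196 against MRC5_CoH69 (exact p = 0.1, adjusted p = 0.533 over 16 tests). The other 13 tests gave exact p from 0.2 to 0.8. In H196 cells the shares moved by at most 0.324 percentage points and all overlapped.

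**Figure D3:**
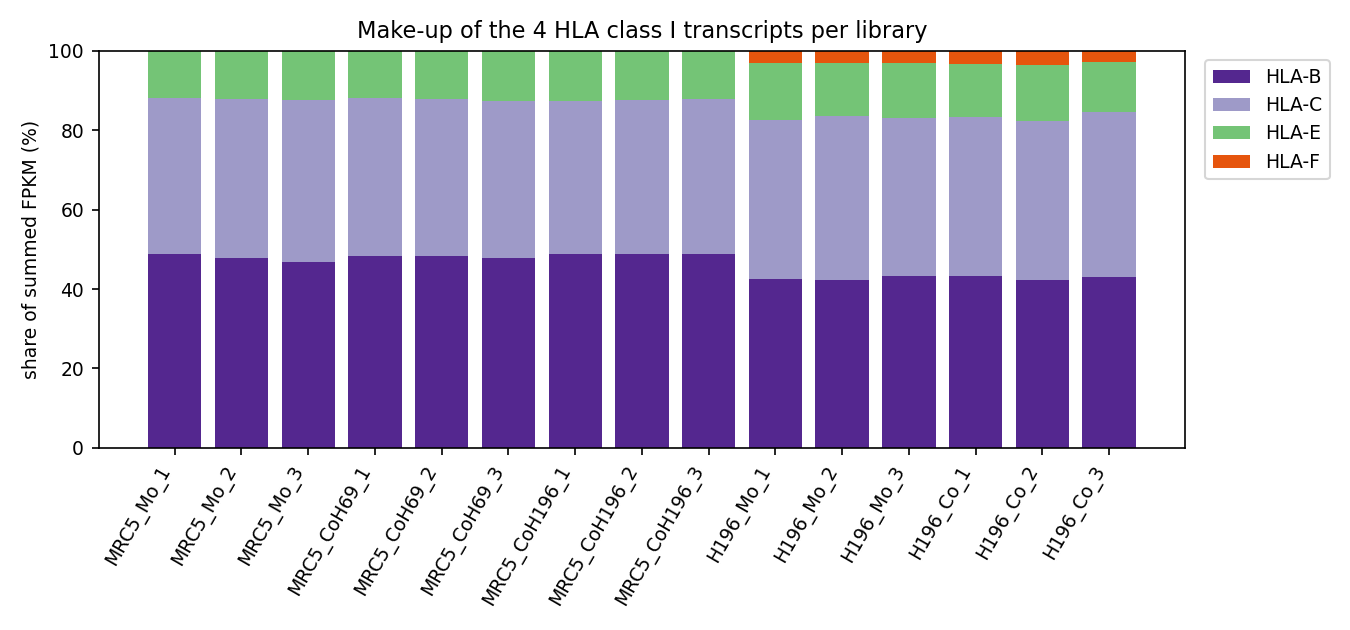
Share of HLA-B, HLA-C, HLA-E and HLA-F in their summed FPKM (%, stacked bars, one bar per library). The 9 MRC5 bars look alike, with HLA-F too small to see, and the 6 H196 bars show HLA-F at 2.83% to 3.46% and a smaller HLA-B share.

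Summed over the members, the heavy chains stood at 1033 ± 60.8 FPKM in MRC5_Mo, 1133 ± 34.2 in MRC5_CoH69, 1596 ± 30.8 in MRC5_CoH196, 672 ± 41.5 in H196_Mo and 759 ± 18.9 in H196_Co (SD, n = 3). The sum covers these 4 genes only and not every class I heavy chain. In CPM this sum does not depend on how reads were split between the members. In FPKM it does in part, since the transcripts differ in length. Reads shared with other genes can change both. MRC5_CoH196 was 1.54 times MRC5_Mo in FPKM and 1.74 times in scaled CPM, and H196_Co was 1.13 times H196_Mo in FPKM and 1.19 times in scaled CPM.

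B2M, the light chain that every one of these heavy chains binds, rose less in the fibroblasts and did not rise in H196 cells. It was at 1261.53, 1210.44 and 1104.80 FPKM in MRC5_Mo, at 1247.97, 1204.83 and 1270.12 FPKM in MRC5_CoH69 and at 1378.64, 1450.28 and 1361.56 FPKM in MRC5_CoH196. In H196 cells it was at 238.71, 218.04 and 245.15 FPKM alone and at 209.62, 223.78 and 190.12 FPKM in co-culture. Only MRC5_CoH196 stood clear of the other groups of its line. The log2 fold change was 0.40 ± 0.0447 (SE, edgeR adjusted p = 1.69e-08) for MRC5_CoH196 against MRC5_Mo, 0.06 (adjusted p = 0.553) for MRC5_CoH69 and -0.09 (adjusted p = 0.428) for H196_Co. The ratio of the FPKM summed over these 4 genes to B2M FPKM was 0.867 ± 0.0106 in MRC5_Mo, 0.914 ± 0.0484 in MRC5_CoH69 and 1.14 ± 0.0507 in MRC5_CoH196. It was 2.88 ± 0.255 in H196_Mo and 3.67 ± 0.368 in H196_Co (SD, n = 3). B2M was 0.146 times as high in H196_Mo as in MRC5_Mo (log2 -2.77, edgeR adjusted p = 1.82e-25), a wider gap than that of HLA-B, HLA-C or HLA-E. FPKM depends on the transcript length used, and B2M is short. Any further heavy chain would raise the ratios, which describe these genes and tables and not molecules of protein.

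**Figure D4:**
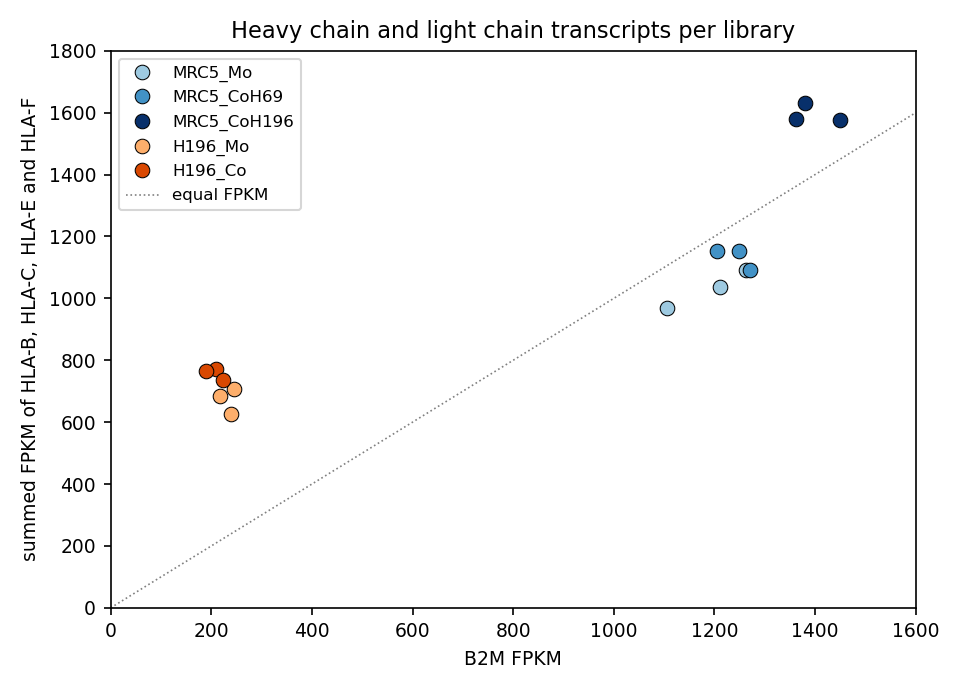
Summed FPKM of the 4 heavy chain genes (y axis) against B2M FPKM (x axis), one point per library, with a dotted line of equal FPKM. MRC5_CoH196 lies to the upper right with ratios of 1.09 to 1.18, MRC5_Mo and MRC5_CoH69 lie below the line, and the H196 libraries lie far above it at 190.12 to 245.15 FPKM of B2M.

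The loading genes of MRC5_CoH196 moved both ways. Of 13 genes of the light chain and peptide loading, 2 passed upward (B2M and SPPL3, an intramembrane protease) and 6 downward, with a median log2 fold change of -0.20 beside -0.00 for all genes, where 37.2% of genes passed upward and 37.1% downward. The downward count was thus near the share of all genes. TAP2, a subunit of the peptide transporter, went from 15.19, 13.20 and 15.60 FPKM in MRC5_Mo to 6.66, 7.05 and 6.11 FPKM (log2 -0.82, edgeR adjusted p = 5.79e-12), while TAP1 overlapped in CPM and did not pass (log2 0.04). The chaperones calreticulin (CALR, -0.56) and BiP (HSPA5, -0.80) fell, as did UGGT1, ERAP1 and ERAP2. Of the 5 genes of the immunoproteasome and its activator, PSMB8 (-0.30), PSMB10 (-0.61) and PSME2 (-0.73) fell, and none rose. On library totals, which shift the median gene to -0.18, 11 of the 13 loading genes and all 5 of the latter passed downward, while HLA-B, HLA-C and HLA-E still passed upward.

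The regulators of class I promoters moved both ways. NLRC5, the class I transactivator, was at 5.36, 4.35 and 5.07 FPKM in MRC5_Mo and at 2.44, 2.15 and 2.18 FPKM in MRC5_CoH196, with no overlap (log2 -0.93, edgeR adjusted p = 2.3e-10). Of the 19 factors tested, 8 passed downward, among them RFX5 (-0.60) and RFXANK (-0.85), which bind the X box with NLRC5, and NFKB1 (-1.16). As many passed upward, led by IRF2 (0.99), an interferon regulatory factor, and RELA (0.71), the NF-κB subunit. Both counts were near those of all genes (37.2% upward, 37.1% downward). On library totals 4 passed upward and 9 downward. IRF1, an activator of class I genes, fell by 0.28 on the log2 scale. Of 10 interferon receptors, kinases and inhibitors, 5 passed upward (SOCS3 0.52, IFNGR2 0.49, IFNGR1 0.46, JAK1 0.45 and IFNAR2 0.32) and 3 downward (SOCS1, IFNAR1 -0.27 and TYK2 -0.23), and 4 passed each way on library totals. SOCS1, an inhibitor of interferon signalling, was at 14.55, 12.87 and 13.94 FPKM in MRC5_Mo and at 2.39, 2.44 and 2.47 FPKM in MRC5_CoH196 (log2 -2.33, edgeR adjusted p = 3.36e-15). Of 25 interferon-stimulated genes tested, 10 passed upward (OASL 3.12, MX1 1.48, IFI6 1.46) and 8 downward (GBP2 -1.44, GBP1 -0.86), with a median of 0.14 that turned to -0.04 on library totals. These counts too were near the 37.2% and 37.1% of all genes. The rises named varied between the MRC5_CoH196 libraries. OASL ran from 0.52 to 2.19 FPKM on 18 to 71 reads, MX1 from 1.89 to 5.79 FPKM and IFI6 from 33.12 to 75.36 FPKM. IFIT1, IFIT2 and IFIT3 passed upward although their libraries overlapped with MRC5_Mo in CPM.

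With H69 as the partner, 1 of 13 loading genes, 1 of 5 immunoproteasome genes, 1 of 19 promoter factors and 2 of 25 interferon-stimulated genes passed, all upward, where 3.78% of all genes passed upward and 2.93% downward. TAP1 rose from 23.10, 21.83 and 20.21 FPKM to 26.68, 25.16 and 24.32 FPKM (log2 0.24, edgeR adjusted p = 0.00532). PSMB9 (0.36), IRF1 (0.45), GBP1 (0.25) and GBP2 (0.41) were the others, and NLRC5 did not pass (log2 -0.07). MRC5_CoH196 against MRC5_CoH69 had 10 of the 13 loading genes and all 5 of the immunoproteasome list lower, where 36.6% of genes passed downward, while HLA-B, HLA-C and HLA-E passed upward in the same fit. In H196_Co 0 of the 13 loading genes passed in edgeR, 2 had an unadjusted p under 0.05 (TAPBP at -0.16 and CALR at 0.16 on the log2 scale), the DESeq2 Wald test called 0, and limma on log2(FPKM + 1) called 2 of 12 downward. PSME2 (-0.34) was the 1 of 5 immunoproteasome genes that fell, and of 19 promoter factors RELA rose (0.33) and ATF1 (-0.28) and NFYA (-0.23) fell. In H196_Co 12% of all genes passed upward and 7.78% downward. NLRC5 was scarce in H196 cells, at 0.19, 0.29 and 0.20 FPKM alone and 0.20, 0.28 and 0.14 FPKM in co-culture, and 0.0296 times as high in H196_Mo as in MRC5_Mo (log2 -5.08, edgeR adjusted p = 9.97e-23). In H196_Mo against MRC5_Mo, 4 of 13 loading genes passed upward and 8 downward. Of the 5 immunoproteasome genes 1 passed upward and 3 downward, where 44% of all genes passed upward and 42.6% downward. TAP2 stood higher in H196_Mo than in MRC5_Mo (0.70) and PSMB8 lower (-1.84).

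**Figure D5:**
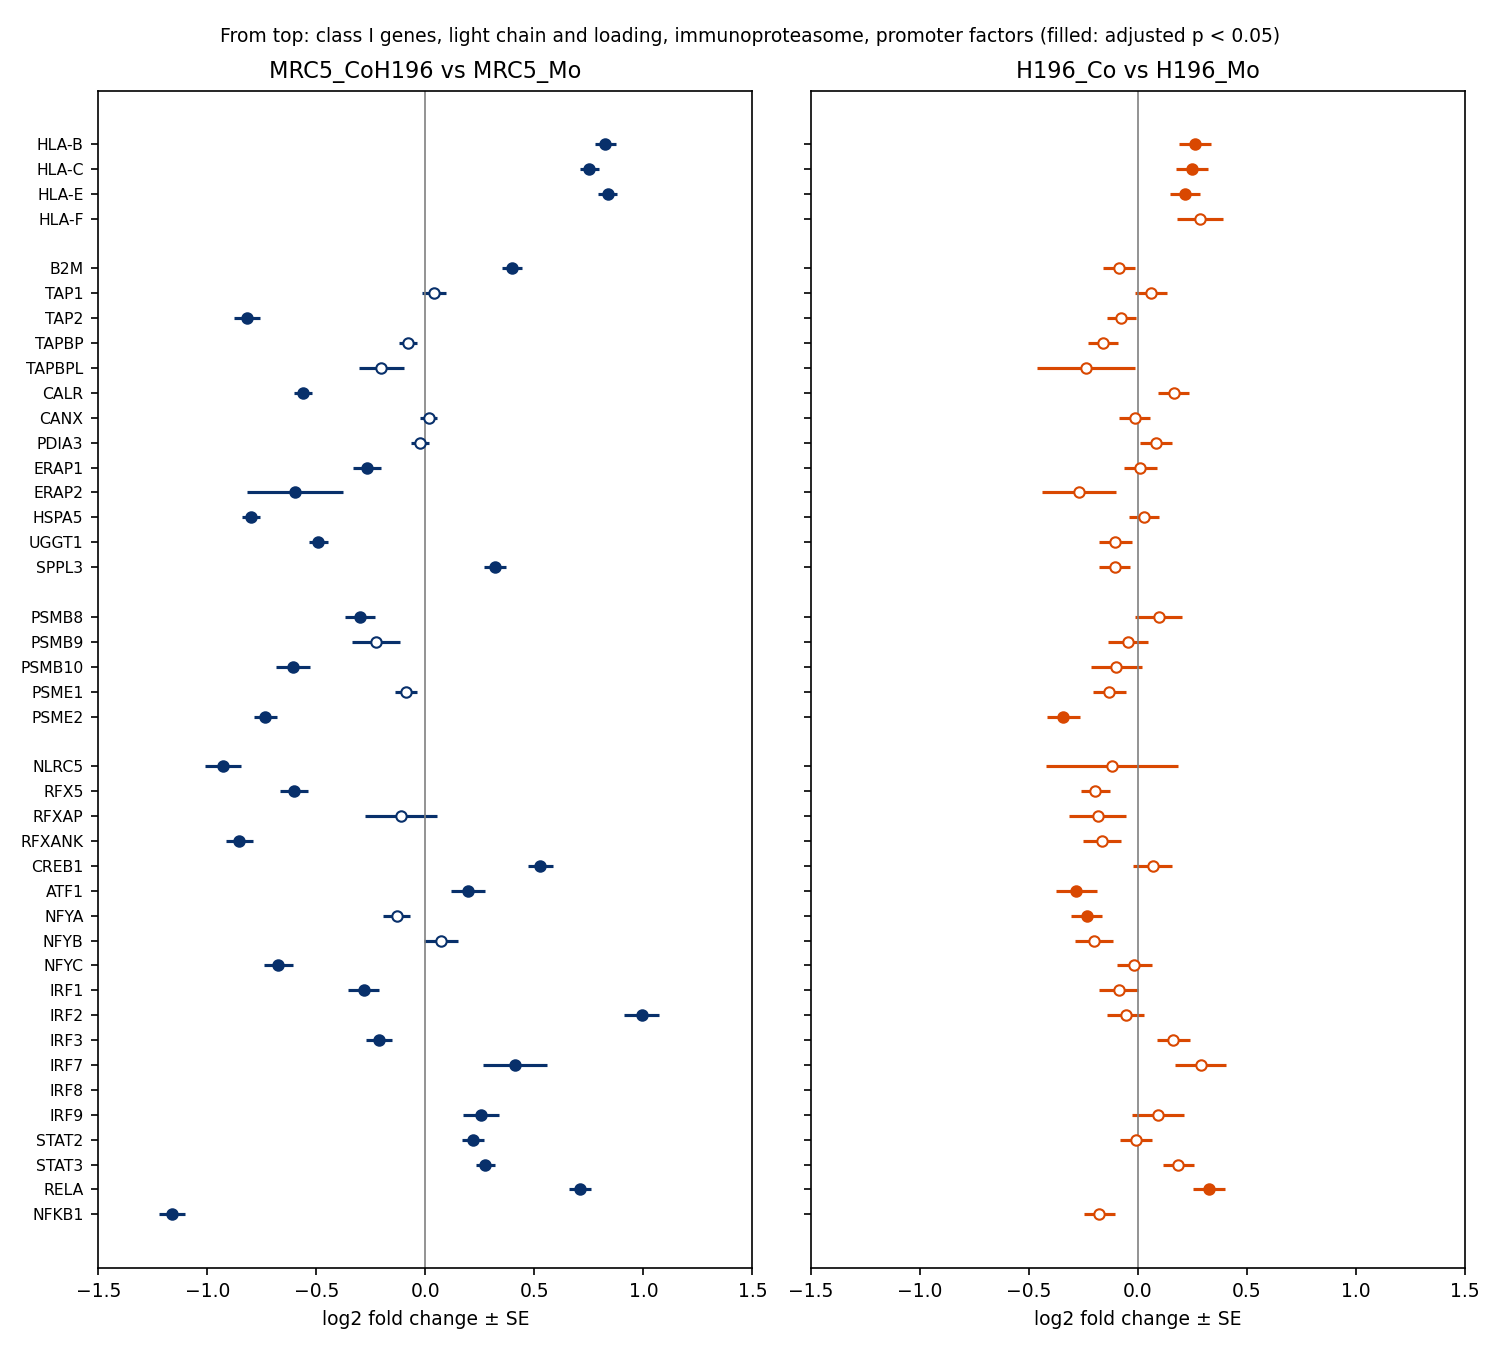
Log2 fold changes ± SE (edgeR, x axis) of the class I genes, the light chain and loading genes, the immunoproteasome genes and the promoter factors reported here, from top to bottom, in MRC5_CoH196 against MRC5_Mo (left) and H196_Co against H196_Mo (right), filled where the adjusted p was under 0.05. On the left HLA-B, HLA-C and HLA-E lie to the right of every loading and immunoproteasome gene, TAP2 lies at -0.82 and NLRC5 at -0.93, and on the right all values lie near 0.

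Other class I-like genes gave no common direction, and few class II genes could be tested. Of 9 class I-like chains tested in MRC5_CoH196 against MRC5_Mo, FCGRT, the neonatal Fc receptor, rose (0.78), ULBP3, a ligand of the NK receptor NKG2D, fell (-1.04), PROCR fell (-0.20), and MR1 passed upward in counts (0.45) while its FPKM went from 4.08 to 2.96. Among class II genes HLA-DMA rose (0.74) and the other 4 tested did not pass, with a median of 0.44. HLA-DMB (0.82, edgeR adjusted p = 0.0543, 4 to 14 reads per library) and HLA-DPA1 (0.44, 0.0579) pointed upward and HLA-DPB1 (-0.22) downward. CIITA, the class II transactivator, was at a mean of 0.0467 FPKM or less in all groups. Of 9 genes for turnover or retention at the surface, 4 passed upward, led by the ubiquitin ligase MARCHF9 (1.33), and 3 downward, led by WWP2 (-0.76). In this comparison 37.2% of all genes passed upward and 37.1% downward, so the turnover counts were near the shares of all genes. In H196_Co ULBP2 rose (0.79) and HFE fell (-0.53) among the 9 class I-like chains tested, where 12% of all genes passed upward and 7.78% downward. MICB, another NKG2D ligand, was 6.71-fold higher in H196_Mo than in MRC5_Mo.

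Markers matched the labels of the lines in part. Summed fibroblast marker FPKM ran from 8486 to 10084 over the MRC5 groups with all 12 markers listed and VIM the highest. In MRC5_CoH196, where the class I genes rose, 6 of the 12 passed upward and 4 downward, beside 37.2% and 37.1% of all genes. VIM went from 4163 to 5705 FPKM (log2 0.63) and carried the sum. The collagen COL6A1 also rose (291 to 413 FPKM, log2 0.68), as did PDGFRB (60.7 to 85.5 FPKM). On scaled counts LUM (0.30), FAP (0.15) and DCN (0.15) passed upward too. The collagens COL1A1 (2628 to 785 FPKM, log2 -1.57), COL3A1 (260 to 54.0 FPKM, -2.09) and COL1A2 (1974 to 1191 FPKM, -0.56) and POSTN (-0.44) fell. COL1A1 was at 0.257 FPKM in H196_Mo and 0.317 FPKM in H196_Co against 2628 FPKM in MRC5_Mo. In H196 cells the fibroblast sum of 3017 to 3499 FPKM was led by VIM, and COL1A2 was listed at 0 in H196_Mo. NE markers were led by UCHL1 in all groups (390 to 568 FPKM in MRC5, 534 to 654 FPKM in H196). The epithelial marker CDH1 was at 0 in both mono-cultures and EPCAM at most 0.233 FPKM in any group mean, while KRT7 (1.43), KRT8 (0.83) and KRT19 (0.99) rose and KRT18 (-0.25) fell in MRC5_CoH196 beside the class I genes. Summed leukocyte markers, nearly all CD68, stood at 52.8 to 59.7 FPKM in MRC5_Mo, 76.6 to 84.2 in MRC5_CoH196, 57.7 to 60.8 in H196_Mo and 76.6 to 82.5 in H196_Co, with PTPRC at 0 in MRC5_CoH196. Summed endothelial markers were at most 0.51 FPKM. The part of these markers in the class I values was not tested.

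Within each line the members varied together. Over the 9 MRC5 libraries the Pearson correlation of log2 CPM was 0.998 for HLA-B with HLA-C, 0.995 for HLA-B with HLA-E and 0.997 for HLA-C with HLA-E. Over the 6 H196 libraries the pairs of all 4 members gave 0.826 to 0.982. The points share libraries and fall into groups, so these values are descriptions. Among 9223 MRC5 genes, those most like HLA-C were PLOD1 (0.9982), PLCD1 (0.9982) and MRC2 (0.9974), those most like HLA-E were PLOD1 (0.9983), MRC2 (0.9981) and RIC1 (0.9965), and those most like HLA-B were ECH1 (0.9969), P4HB (0.9964) and BGN (0.9960). PLOD1 is a collagen lysyl hydroxylase, P4HB a subunit of prolyl hydroxylase and MRC2 a collagen receptor. These descriptions cover only some of the genes named, and a link of the members to collagen was not tested. Among 9835 H196 genes the closest were TCEA3 (0.9954) to HLA-B, ANKRA2 (0.9961) to HLA-C, MECR (0.9930) to HLA-E and IL11RA (0.9922) to HLA-F. With Spearman correlation other genes led, among them ITM2C for HLA-B and HLA-C in MRC5.

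The members resemble each other in sequence, so the split of reads between them is uncertain. In the reference transcripts 2.54% of the words of 50 bases of HLA-B, 6.71% of HLA-C, 5.13% of HLA-E and 1.7% of HLA-F also occurred in another gene, and no word of 100 bases occurred in another of the members. Expected counts were whole, that is not split between genes, in 5 of 9 MRC5 libraries for HLA-B, 6 for HLA-C, 8 for HLA-E and 9 for HLA-F. In the 6 H196 libraries they were whole in 1, 1, 0 and 2. HLA genes differ widely between people, and the alleles of MRC5 and H196 against the reference were not tested, which bears on the contrast of the lines more than on comparisons within a line.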

How the data were processed

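Poly(A) RNA of 15 cultures of 2 cell lines was read on a BGIseq-500 machine. Per the methods of the study, SOAPnuke filtered the reads, HISAT mapped them to the genome (GRCh38.p13) and Bowtie2 mapped them to gene sequences. The submitters' processing notes name HISAT2 2.1.0, Bowtie2 2.3.4.3 and RSEM 1.3.1, and the read length is not given in the sources used here. For each gene the deposited tables hold expected counts, which estimate its reads and carry no normalization, and 93.7% (MRC5) and 92.1% (H196) were whole numbers. FPKM values, scaled by the authors to transcript length and library depth, stand beside them. The MRC5 and H196 tables were normalized separately, so FPKM was tested only within a table. TPM and normalized counts (30 columns in all) and the columns of the authors' own comparisons (fold changes with p and q) were not used.

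Expected counts were rounded and analysed with edgeR 4.0.16 in R 4.3.3 (TMM factors, filterByExpr, quasi-likelihood tests, two-sided, Benjamini-Hochberg over all genes tested). Models held the 9 MRC5 libraries, the 6 H196 libraries or all 15. Passing meant an adjusted p under 0.05, and a DEG also a log2 fold change beyond 0.58 in either direction. Standard errors were derived from the log2 fold change and the root of its F statistic. Shares were tested with exact permutation tests (scipy 1.17.1). Scripts were tested on simulated data. Genes named are the members, genes of the lists and, for each member, the 3 genes with the highest correlation among those with a mean of at least 10 CPM (log2 CPM, prior count 2). Members and lists were chosen with earlier results of these data known. Alternatives were DESeq2 1.42.0 size factors and Wald test, library totals alone, no filter or at least 10 counts in every library, an adjusted p under 0.01, other DEG limits, limma 3.58.1 on log2(FPKM + 1) and log2(FPKM + 0.1), a block on replicate numbers, other sets of libraries and each library left out in turn. Replicate numbers did not pair the libraries, since deviations of same-numbered libraries correlated at -0.116 to 0.081 (MRC5) and -0.151 to 0.0334 (H196). No libraries were duplicates, with a chi-square per degree of freedom of at least 1.85 within groups. Promoters came from RefSeq (GRCh38.p14) and transcripts from GENCODE. Results of single genes left out of the text are not reported here.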

Additional observations from a re-analysis of the deposited data

Results flagged for a closer look

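The response of fibroblasts to H196 cells exceeded the response of H196 cells to fibroblasts by 0.54 for HLA-B, 0.48 for HLA-C, 0.59 for HLA-E and 0.46 for B2M on the log2 scale (test of the difference in one edgeR model over all 15 libraries, adjusted p = 1.36e-05, 2.61e-05, 1.86e-07 and 4.13e-05). For the heavy chains, MRC5_CoH196 and H196_Co both lay above their mono-culture in every library in CPM. For B2M this held in MRC5_CoH196, while the H196 groups overlapped. Of all genes, 37.7% had no overlap upward in MRC5_CoH196 and 20.2% in H196_Co. In FPKM the H196 groups overlapped for HLA-E as well. The partner, the medium and the line differ together between the compared responses and cannot be told apart.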

How the results depend on the processing

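No alternative changed a call or a direction of HLA-B, HLA-C or HLA-E in MRC5_CoH196 against MRC5_Mo or MRC5_CoH69, in the difference of responses or in H196_Mo against MRC5_Mo. HLA-F could not be tested between the lines with at least 10 counts in every library. With a DEG limit of 1, 0 members were DEGs in either comparison of MRC5_CoH196, and 0 against MRC5_CoH69 also on library totals and with limma. With no fold limit, 1 member was called in MRC5_CoH69 and 3 in H196_Co. In the difference of responses, 2 members exceeded the DEG limit with DESeq2 size factors or its Wald test and 0 on library totals, and 0 to 3 with a library left out.

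In MRC5_CoH69 against MRC5_Mo, HLA-B passed with no filter (0.15, adjusted p = 0.0457), and HLA-E did not pass at 0.01 (0.16) or in the model over all libraries (0.16, adjusted p = 0.101). With each library left out, HLA-B ran from 0.0942 to 0.21 and HLA-E from 0.13 to 0.18.

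In H196_Co against H196_Mo, HLA-B, HLA-C and HLA-E did not pass at 0.01 (0.26, 0.25, 0.22), on library totals (0.19, 0.18, 0.14), or with limma at either pseudocount (0.19, 0.17, 0.14), and HLA-F passed with no filter (0.28, adjusted p = 0.0472) and in the model over all libraries (0.30, adjusted p = 0.0369). With each library left out, HLA-B ran from 0.19 to 0.32, HLA-C from 0.18 to 0.29, HLA-E from 0.18 to 0.26, HLA-F from 0.17 to 0.35 and the difference of responses of HLA-F, which rests on 1 to 7 fibroblast reads per library, from 1.14 to 1.84.

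A block on the replicate number, which did not pair the libraries, gave a call to HLA-B in MRC5_CoH69 (0.15, adjusted p = 0.0434) and removed that of HLA-E in H196_Co (0.22, adjusted p = 0.0687), and changed no other call of a member.

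The H196 share of HLA-C differed by -0.07 percentage points in FPKM and by 0.047 in expected counts, and ran from -0.53 to 0.38 with a library left out. The H196 shares of HLA-E (-0.71 to 0.064) and HLA-F (-0.065 to 0.25) and the HLA-E share in MRC5_CoH69 (-0.016 to 0.31) also changed sign. Ratios of summed levels were 1.74, 1.58 and 1.19 in CPM for MRC5_CoH196 against MRC5_Mo and MRC5_CoH69 and for H196_Co, and 1.5 to 1.59 and 1.09 to 1.16 for the first and last with a library left out. The cause of these changes was not tested. The genes of the other lists that passed downward in H196_Co numbered 9, and 18 or 19 on library totals or with limma, and those that passed upward in MRC5_CoH196 against MRC5_Mo 32, and 21 with limma. At 0 to 7 reads per library, depth limits HLA-F in MRC5.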
